A study of Arabidopsis thaliana with 9 samples.

Results

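The loci described here are 1280 annotated Arabidopsis thaliana loci whose identifiers place them around the centromeres of chromosomes 2 and 4. They were the rows of the deposited table with identifiers from AT2G04 to AT2G14 or from AT4G02 to AT4G09 that held at least 10 normalized reads in at least 3 of the 9 libraries, leaving out AT2G13540 and AT4G03038. A normalized read is a read count divided by the authors' size factor for its library. The table lists 37336 loci, of which 4766 reached this level anywhere in the genome. The identifier range holds 3762 loci, of which 2480 stayed below the level, and the 1280 comprise 677 loci on chromosome 2 and 603 on chromosome 4. The loci were thus chosen by their measured levels in the 9 libraries, which are given below as a description, and not by fold changes between genotypes.

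Small RNAs were sequenced from plants labelled prors1 (LUC), rls6 and Col-0 (LUC), with 3 libraries of each, and the study set both mutants against Col-0 (LUC). Plants of every genotype were kept on soil in long days (16 h of light, 8 h of dark) and taken at 25 days, although the source label gives 26, and RNA of 17 to 30 nt was cut from a gel loaded with 30 µg of total plant RNA. Col-0 is an accession in wide laboratory use. The labels do not say what LUC marks, whether rls6 carries it too, or what change rls6 carries, and in the source labels each mutant has a name ending in rbp-ko that differs from its title. The labels leave unsaid whether separate plants gave the 3 libraries of each genotype, and the p-values cover the spread between these libraries, which may be technical.

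Pericentromeric regions of plant chromosomes are packed as heterochromatin, which is dense in transposons and their remains and poor in active genes. Short interfering RNAs are made there by plant-specific RNA polymerases with RNA-dependent RNA polymerases and Dicer-like enzymes, and they guide Argonaute proteins and DNA methylation back to matching sequence in the pathway called RNA-directed DNA methylation. In Arabidopsis, repeats deep in heterochromatin also hold their DNA methylation through chromatin remodelling and maintenance methyltransferases, and repeats nearer to the arms lean more on the small-RNA pathway. Fragments of longer transcripts can fall in the same size range, and read counts per locus do not separate them from silencing RNA.

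The 1280 loci were mostly remnants without a known product. The annotation of the TAIR10.1 assembly (RefSeq), in which all 1280 were found, calls 886 of them pseudogenes, 215 protein-coding, 110 long non-coding RNAs (lncRNAs), 60 transcribed pseudogenes, 5 other non-coding RNAs, 3 small nuclear RNAs and 1 a tRNA. For 1136 loci it gives no symbol and no product beyond an uncharacterized protein or other RNA, and the text of only 11 names a transposon or retroelement. The median exon length was 1923 bases. A median of 74.6% of the 21-base windows of a locus occurred once in the genome, so part of the reads of many loci could have come from another copy, and how reads with several places were counted is not given in the sources used here. Another annotated gene overlapped 126 of the loci, on the opposite strand for 112 of them, and reads of such partners cannot be told apart because the strand setting is not given either.

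Position went against the label for part of the set. The protein-coding genes and pseudogenes in the identifier range span bases 1267762 to 6480183 of chromosome 2 and 874880 to 6260259 of chromosome 4, and 1221 of the 1280 loci lie inside these intervals. The other 59, which are 57 lncRNAs and 2 small nuclear RNAs, carry identifiers of the range but lie on the chromosome arms, 2.36 to 15.1 Mb from the centromere gap of their chromosome. A further 35 loci on chromosome 2, between bases 3247003 and 3484062, lie in the large insertion of mitochondrial DNA next to that centromere, and at least 94.2% of the 21-base windows of each also occur in the mitochondrial genome. These 3 sets, the 1186 other loci inside the intervals, the 59 on the arms and the 35 in the insertion, are given separately below where position is described, and values for all 1280 loci pool them. The centromeres are gaps of 1000 bases in the assembly, at bases 3607930 to 3608929 of chromosome 2 and, for the one of the 2 such gaps taken as the centromere, 3956022 to 3957021 of chromosome 4.

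The first 150 bases of 7 loci show what kinds of sequence the reads fall on, since uniqueness decides how far a value belongs to one place. They are given on the locus's own strand from the TAIR10.1 sequence (RefSeq), with capitals for bases inside at least 1 window of 21 bases that occurs once in the genome and lower case for bases found only in repeated windows. The first 4 lead the changes described below, AT4G06547 is a pseudogene near the centromere of chromosome 4, AT4G03650 is a repeated pseudogene whose windows had a median of 18 copies, and AT2G07697 lies in the mitochondrial insertion with a median of 2 copies.
AT2G05925 (chr2:5661128-5661277, plus strand): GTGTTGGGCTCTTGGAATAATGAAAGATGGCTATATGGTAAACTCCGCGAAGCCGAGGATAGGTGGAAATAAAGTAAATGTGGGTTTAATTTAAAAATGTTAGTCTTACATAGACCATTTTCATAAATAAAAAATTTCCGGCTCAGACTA
AT4G05995 (chr4:7592500-7592649, plus strand): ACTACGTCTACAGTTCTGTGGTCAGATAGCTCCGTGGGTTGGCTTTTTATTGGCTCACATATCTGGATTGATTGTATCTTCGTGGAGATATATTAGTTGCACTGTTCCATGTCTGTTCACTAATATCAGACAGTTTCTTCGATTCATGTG
AT2G13090 (chr2:5386717-5386866, plus strand): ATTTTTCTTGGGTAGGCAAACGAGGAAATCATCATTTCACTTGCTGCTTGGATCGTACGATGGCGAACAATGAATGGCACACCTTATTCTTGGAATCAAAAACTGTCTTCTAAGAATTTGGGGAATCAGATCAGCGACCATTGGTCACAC
AT2G09830 (chr2:3691598-3691747, minus strand): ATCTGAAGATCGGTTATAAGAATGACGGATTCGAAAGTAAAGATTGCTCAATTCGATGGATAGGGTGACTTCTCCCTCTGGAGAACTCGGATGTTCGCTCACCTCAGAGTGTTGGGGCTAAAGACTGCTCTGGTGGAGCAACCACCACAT
AT4G03650 (chr4:1619563-1619712, plus strand): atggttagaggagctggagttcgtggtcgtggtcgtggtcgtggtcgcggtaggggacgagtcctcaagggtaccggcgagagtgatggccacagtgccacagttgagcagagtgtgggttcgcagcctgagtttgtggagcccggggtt
AT4G06547 (chr4:3404979-3405128, plus strand): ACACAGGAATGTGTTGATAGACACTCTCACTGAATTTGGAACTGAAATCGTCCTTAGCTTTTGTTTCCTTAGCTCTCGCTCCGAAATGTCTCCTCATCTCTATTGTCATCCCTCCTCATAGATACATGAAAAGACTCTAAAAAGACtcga
AT2G07697 (chr2:3357325-3357474, minus strand): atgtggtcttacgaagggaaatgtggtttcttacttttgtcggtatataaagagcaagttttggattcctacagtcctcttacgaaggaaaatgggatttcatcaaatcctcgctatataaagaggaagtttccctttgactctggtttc
All windows of the first 4 sequences were found once, as were 111 of the 130 windows of AT4G06547, while 0 of 130 were in AT4G03650 and AT2G07697.

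Of the 1280 loci, 926 held at least 10 normalized reads in all 9 libraries and 61 in exactly 3. Among these 61, 1 reached the level in the prors1 (LUC) libraries only, 2 in the rls6 libraries only and 5 in the Col-0 (LUC) libraries only, so their differences were in part fixed by the choice. At the threshold, AT2G04135, AT2G11405, AT4G07452 and AT4G08039 had a third-highest library value of 10.0 normalized reads and were taken, and AT2G14970, AT2G07650, AT4G04420 and AT4G03750 had 9.91 and were not.

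The libraries held 611238 to 702303 reads over all loci, of which the 1280 loci took 11.2% to 14.5%, and a single locus outside the set took 13.0% to 22.3% of a library. Values of a few reads therefore carry a large counting error, which the test takes from the spread between libraries. In these bulk libraries, fewer cells of a type and less RNA per cell cannot be told apart.

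Summed over the 1280 loci, the level was close to the same in the 3 genotypes. The sum was 74994, 75313 and 74728 normalized reads in prors1 (LUC), 76031, 74933 and 75513 in rls6, and 77141, 75568 and 76578 in Col-0 (LUC). The means were 75012 ± 293 in prors1 (LUC), 75492 ± 550 in rls6 and 76429 ± 797 in Col-0 (LUC) (SD, n = 3 each). All prors1 (LUC) sums lay below the Col-0 (LUC) sums, and the rls6 sums overlapped those of Col-0 (LUC). As a share of all reads in a library, the loci took 11.9% ± 0.795 in prors1 (LUC), 12.0% ± 0.549 in rls6 and 13.4% ± 1.16 in Col-0 (LUC) (SD, n = 3 each). By chromosome, the sum for chromosome 2 averaged 36855 ± 339.7 in prors1 (LUC), 35455 ± 269 in rls6 and 36766 ± 355 in Col-0 (LUC), and that for chromosome 4 averaged 38157 ± 123 in prors1 (LUC), 40038 ± 320.3 in rls6 and 39663 ± 442 in Col-0 (LUC).

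Locus by locus, the share of pericentromeric loci called changed in prors1 (LUC) was below that of all tested loci in both directions, and in rls6 the share that rose was below it and the share that fell was above it. Differences were tested with limma on log2(normalized reads + 1) over all 4766 loci, and a locus is called changed at a Benjamini-Hochberg adjusted p under 0.05. In prors1 (LUC) against Col-0 (LUC), 54 of the 1280 loci rose and 58 fell, 4.22% and 4.53% of them, where 7.74% of all tested loci rose and 6.63% fell. In rls6 against Col-0 (LUC), 82 loci rose and 94 fell, 6.41% and 7.34%, where 12.7% of all tested loci rose and 4.95% fell. In rls6 against prors1 (LUC), 94 loci rose and 89 fell, 7.34% and 6.95%, where 11.7% of all tested loci rose and 5.16% fell. The other 3346 nuclear loci with enough reads showed 234 higher and 255 lower in prors1 (LUC), 426 higher and 139 lower in rls6, each against Col-0 (LUC), and 448 higher and 151 lower in rls6 against prors1 (LUC). Both comparisons with Col-0 (LUC) share its 3 libraries.

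The middle of the distribution moved in rls6 only by a small amount. The median log2 fold change of the 1280 loci was 0.00 in prors1 (LUC) and -0.13 in rls6 against Col-0 (LUC), beside 0.01 and -0.02 over all tested loci, and it was -0.13 in rls6 against prors1 (LUC), beside -0.02. Set against the Col-0 (LUC) mean of each locus, the median was between -0.00 and 0.01 in the 3 prors1 (LUC) libraries and -0.11, -0.12 and -0.11 in the 3 rls6 libraries, against 0.01, 0.00 and 0.00 in the 3 Col-0 (LUC) libraries. Of the 1280 loci, 65.4% lay below 0 in rls6 against Col-0 (LUC) and 49.8% in prors1 (LUC) against Col-0 (LUC). The rls6 median of all tested loci, -0.02, was itself below 0, so at least as many of them lay below 0 as above it. Among the 926 loci with enough reads in every library, the medians were 0.01 in prors1 (LUC) and -0.12 in rls6 against Col-0 (LUC).

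By chromosome, the counts are first given for the 1186 loci inside the intervals and outside the insertion. In prors1 (LUC) against Col-0 (LUC), 21 of 607 such loci rose and 17 fell on chromosome 2 (median 0.04), and 18 of 579 rose and 34 fell on chromosome 4 (median -0.08). All of these shares lay below those of all tested loci, of which 7.74% rose and 6.63% fell. With the insertion, which held 9 of the rises and 0 of the falls, and the loci on the arms included, 34 rose and 19 fell on chromosome 2, and 20 rose and 39 fell on chromosome 4. These larger counts turned to 16 higher and 31 lower on chromosome 2 (median -0.09) when libraries were scaled by their total reads. The falls called on chromosome 2 numbered 8 after dropping prors1 (LUC) replicate 3, and 11 and 9 after dropping replicates 1 and 3 of Col-0 (LUC). On chromosome 4, the rises numbered 11 after dropping prors1 (LUC) replicate 2 and 12 after dropping Col-0 (LUC) replicate 1, and the falls numbered 23 after dropping Col-0 (LUC) replicate 3.

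In rls6 against Col-0 (LUC), 29 of the 607 rose and 35 fell on chromosome 2, 4.78% and 5.77% (median -0.14), and 31 of the 579 rose and 53 fell on chromosome 4, 5.35% and 9.15% (median -0.15). In rls6 against prors1 (LUC), 29 rose and 47 fell on chromosome 2 (median -0.20), and 41 rose and 35 fell on chromosome 4 (median -0.07). The direction of these last counts depended on the processing. With all loci of a chromosome included, 43 rose and 54 fell on chromosome 2, but 31 and 11 with DESeq2 and 38 and 34 under total-read scaling, and 51 rose and 35 fell on chromosome 4, but 43 and 54 under upper-quartile scaling. No difference between the chromosomes was tested.

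**Figure D1:**
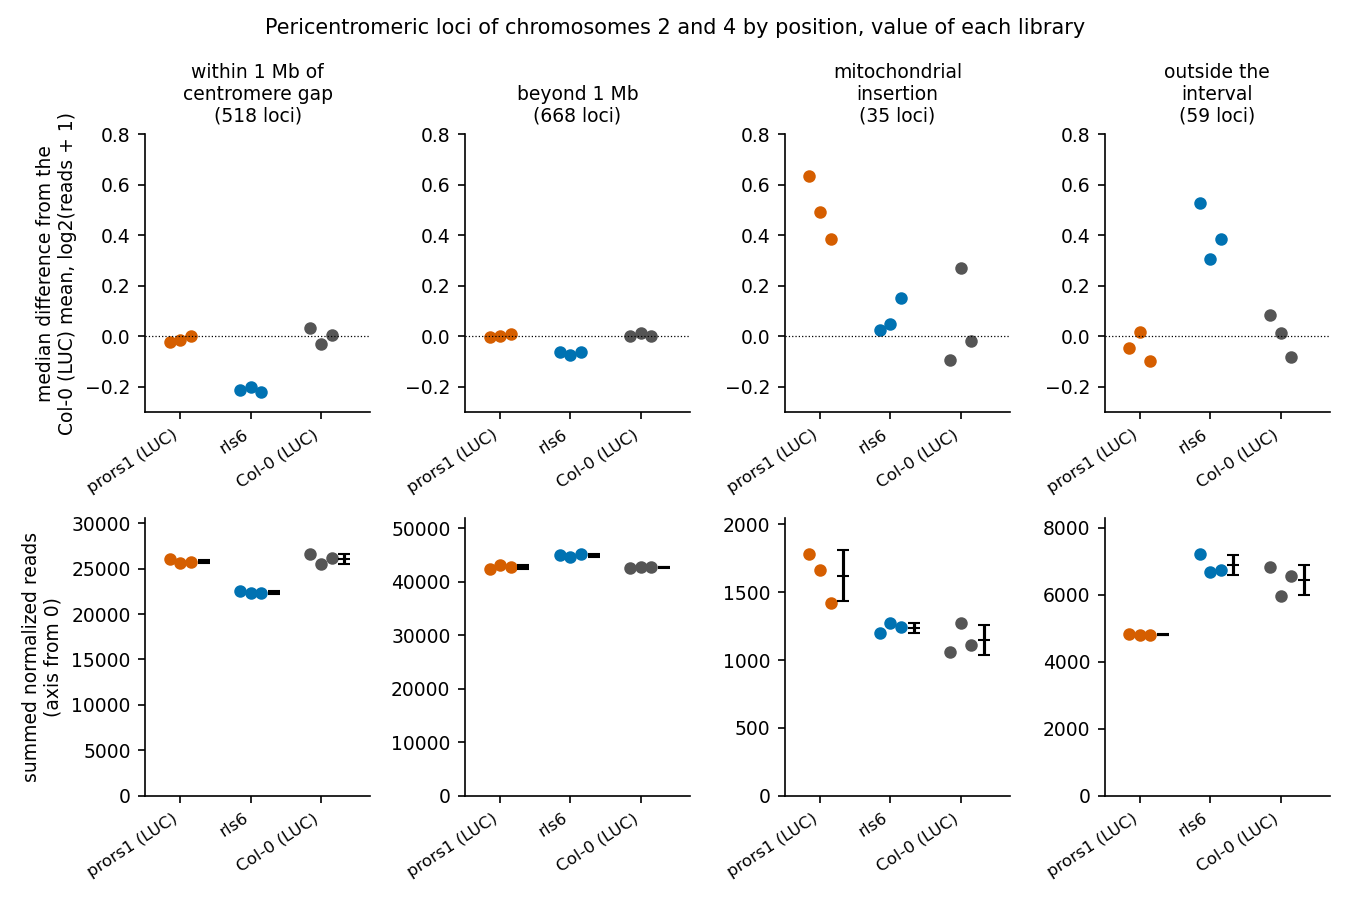
Each point is 1 library of prors1 (LUC), rls6 or Col-0 (LUC), in 4 groups of loci (those outside the interval lie on the arms): above, the median over loci of the log2(normalized reads + 1) difference from the Col-0 (LUC) mean, and below, the summed normalized reads on an axis from 0, with the mean and SD beside the points. Within 1 Mb of the centromere gap the 3 rls6 sums lie between 22296 and 22515, below every prors1 (LUC) sum and every Col-0 (LUC) sum.

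Loci that fell in rls6 were more frequent near the centromere gap than away from it, and loci that rose were more frequent away from it than near it. Within 1 Mb of the gap, 10 of 518 loci rose and 60 fell in rls6 against Col-0 (LUC), 1.93% and 11.6%, with a median log2 fold change of -0.22. Beyond 1 Mb, 50 of 668 rose and 28 fell, 7.49% and 4.19%, with a median of -0.08. Over all tested loci, 12.7% rose and 4.95% fell, so both shares beyond 1 Mb lay below these. The split at 1 Mb was chosen after the values were seen, and the difference between the 2 distance groups was not tested. Beyond 1 Mb the direction turned with the scaling, to 41 higher and 58 lower under upper-quartile scaling (median -0.17) and 34 higher and 55 lower under total-read scaling (median -0.21), and each Col-0 (LUC) or rls6 library left out, other than Col-0 (LUC) replicate 2, gave 13 to 18 lower there. Within 1 Mb these scalings gave 7 and 5 higher and 96 and 93 lower. Leaving out 1 library left 35 loci lower within 1 Mb when that was Col-0 (LUC) replicate 1, 38 when it was Col-0 (LUC) replicate 3 and 39 when it was rls6 replicate 2, and DESeq2 called 26 lower and 6 higher.

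The same was seen in summed reads. Within 1 Mb of the gap, the 518 loci summed to 26012, 25638 and 25669 normalized reads in prors1 (LUC), 22515, 22296 and 22316 in rls6, and 26602, 25525 and 26132 in Col-0 (LUC). All rls6 libraries lay below all others, at 0.858 times the mean of Col-0 (LUC), while the libraries of prors1 (LUC) overlapped those of Col-0 (LUC). Beyond 1 Mb, the 668 loci averaged 42809 ± 426 in prors1 (LUC), 45001 ± 269 in rls6 and 42748 ± 82.7 in Col-0 (LUC) (SD, n = 3 each). The rls6 mean there was 1.05 times that of Col-0 (LUC), and 1 locus described below, AT4G08545, accounted for 719 reads of the difference between them. As a share of all reads in a library, the same loci took 7.17% ± 0.298 in rls6 and 7.47% ± 0.617 in Col-0 (LUC) (SD, n = 3 each), so that the order of the means turned, while within 1 Mb the share was 3.57% ± 0.160 in rls6 and 4.56% ± 0.424 in Col-0 (LUC).

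In prors1 (LUC) the medians of both distance groups were near 0. Within 1 Mb, 12 loci rose and 21 fell against Col-0 (LUC) (median 0.00), and beyond 1 Mb 27 rose and 30 fell (median 0.00). With libraries left out one at a time, 7 to 14 rose and 8 to 20 fell within 1 Mb, the fewest falls being 12 (with 7 rises) and 10 after dropping replicates 2 and 3 of prors1 (LUC), and 8 and 9 after dropping replicates 1 and 3 of Col-0 (LUC). Beyond 1 Mb, 17 rose and 17 fell without Col-0 (LUC) replicate 3, 18 and 18 without prors1 (LUC) replicate 3, and 17 and 23 without prors1 (LUC) replicate 2. Within 1 Mb on chromosome 2, 9 of 240 rose and 6 fell, with a median of 0.07 that became -0.06 under total-read scaling. On chromosome 4, 3 of 278 rose and 15 fell (median -0.10), with 6 to 15 lower when 1 library was left out. Among all tested loci, 7.74% rose and 6.63% fell in prors1 (LUC) against Col-0 (LUC), above the shares in each of these groups. Set directly against prors1 (LUC), rls6 had 7 loci higher and 56 lower within 1 Mb (median -0.23), and 63 higher and 26 lower beyond it (median -0.07). For all tested loci, this comparison had 11.7% higher and 5.16% lower. DESeq2 called 4 higher and 11 lower of the 518 in that comparison, and leaving out any one rls6 or prors1 (LUC) library gave 30 to 34 lower. Beyond 1 Mb, DESeq2 called 42 higher and 6 lower.

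**Figure D2:**
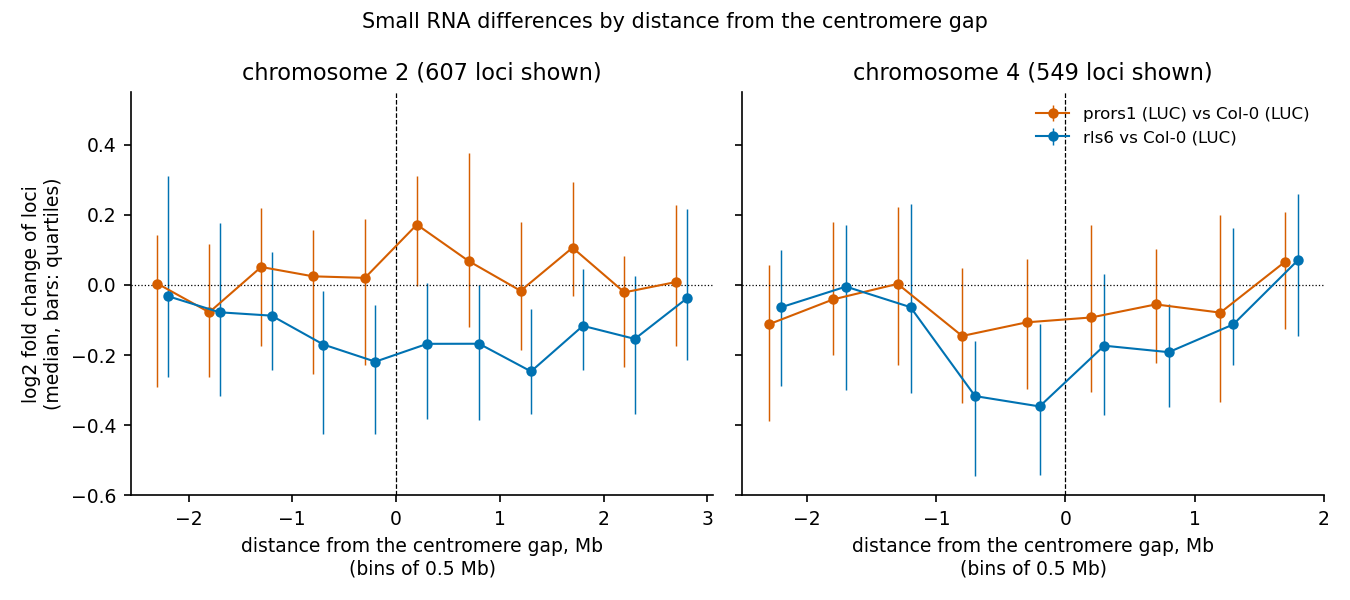
Median log2 fold change against Col-0 (LUC), with bars from the lower to the upper quartile over loci, by distance from the centromere gap in bins of 0.5 Mb with at least 20 loci, for prors1 (LUC) and rls6 on each chromosome. The rls6 medians are lowest just before the gap of chromosome 4, at -0.35 and -0.32.

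The lowest stretch lay just before the gap of chromosome 4. There, 2 of the 84 loci within 0.5 Mb rose and 15 fell in rls6, with a median of -0.35, and of the 59 loci in the next 0.5 Mb outward 0 rose and 14 fell, with a median of -0.32. The summed reads of these stretches in rls6 were 0.861 and 0.750 times those of Col-0 (LUC). In prors1 (LUC) the same stretches had medians of -0.11 and -0.15 against Col-0 (LUC). The identifier block AT4G06, which holds 155 of the loci, was taken by identifier and not by position. It includes AT4G06695, which lies on the arm. In this block, 5 loci rose and 31 fell in rls6 (median -0.32), where 2 rose and 13 fell in prors1 (LUC) (median -0.15). Among all tested loci, 12.7% rose and 4.95% fell in rls6, and 7.74% rose and 6.63% fell in prors1 (LUC). The falls of the block in prors1 (LUC) numbered 7 after dropping prors1 (LUC) replicate 2, and 5 and 7 after dropping replicates 1 and 3 of Col-0 (LUC). The sum of the block averaged 9586 ± 87.4 normalized reads in prors1 (LUC), 8645 ± 146 in rls6 and 10403 ± 303 in Col-0 (LUC) (SD, n = 3 each), and the 3 groups of libraries did not overlap. As a share of all reads in a library, the prors1 (LUC) and rls6 libraries overlapped. Replicate 1 of each was at 1.451% in prors1 (LUC) and 1.467% in rls6.

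On chromosome 2 the profile was flatter. Before the gap, the median in rls6 was -0.22 within 0.5 Mb and -0.17 in the next 0.5 Mb outward. After the gap it was -0.17 in both of the first stretches of 0.5 Mb and lowest, at -0.25, in the 59 loci from 1.0 to 1.5 Mb. The 57 loci within 0.5 Mb after the gap had 3 higher and 0 lower in prors1 (LUC), where the median against Col-0 (LUC) was 0.17. In rls6 against prors1 (LUC), 1 of the 57 rose and 12 fell, with a median of -0.34. Among all tested loci, 7.74% rose and 6.63% fell in the first of these comparisons, and 11.7% and 5.16% in the second. At the outer end before the gap, block AT2G04 had 10 of 54 loci higher and 0 lower in rls6 against Col-0 (LUC), where 12.7% of all tested loci rose and 4.95% fell.

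Single loci near the gap carried small changes. The 60 loci within 1 Mb that fell in rls6 had log2 fold changes of -1.25 to -0.30 with a median of -0.61, 51 of them were pseudogenes, 19 lay on chromosome 2 and 41 on chromosome 4. The examples were chosen after their values were seen. The pseudogene AT4G06547 (chr4:3404979-3407879) had 23.2, 21.2 and 32.8 normalized reads in prors1 (LUC), 11.9, 18.8 and 21.8 in rls6, and 27.6, 30.5 and 38.9 in Col-0 (LUC). It fell by 0.87 ± 0.25 on the log2 scale in rls6 (SE, adjusted p = 0.0159), and all rls6 libraries lay below those of Col-0 (LUC), but leaving out Col-0 (LUC) replicate 3 or rls6 replicate 1, or using DESeq2, ended the call. The pseudogene AT2G11480 (chr2:4598895-4602284) had 35.8, 32.8 and 35.9 in prors1 (LUC), 28.4, 22.6 and 24.8 in rls6, and 48.5, 38.6 and 42.02 in Col-0 (LUC). It fell by 0.74 ± 0.18 in rls6 (SE, adjusted p = 0.00511), with no overlap between the libraries of rls6 and the others, and this call held under every alternative run.

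Closest to the gap of chromosome 2, the pseudogene AT2G09830 (chr2:3687672-3691747) moved in opposite directions in the mutants. It had 63.1, 63.6 and 67.7 normalized reads in prors1 (LUC), 26.6, 23.6 and 24.8 in rls6, and 47.7, 30.5 and 48.2 in Col-0 (LUC). The 3 genotypes did not overlap. Between the mutants, it fell by 1.34 ± 0.19 on the log2 scale in rls6 against prors1 (LUC) (SE, adjusted p = 8.65e-06). Against Col-0 (LUC), it rose by 0.64 ± 0.19 in prors1 (LUC) (SE, adjusted p = 0.0226) and fell by 0.70 ± 0.19 in rls6 (adjusted p = 0.00849). The difference between the mutants held under every alternative run. The rise in prors1 (LUC) was lost under 8 of 21, among them DESeq2, leaving out Col-0 (LUC) replicate 2 and leaving out any prors1 (LUC) replicate (adjusted p up to 0.119), and the fall in rls6 was lost with DESeq2 and without Col-0 (LUC) replicate 1 or 3 (adjusted p up to 0.0585). Its first 150 bases, shown above, occur once in the genome.

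A few loci near the gap ran the other way. AT4G07031 (chr4:4106542-4107491), a pseudogene 0.15 Mb past the gap of chromosome 4, had 6.31, 11.6 and 9.23 normalized reads in prors1 (LUC), 42.1, 42.4 and 43.6 in rls6, and 13.4, 12.1 and 11.3 in Col-0 (LUC). It was 3.49 times as high in rls6 as in Col-0 (LUC), a rise of 1.73 ± 0.26 on the log2 scale (SE, adjusted p = 2.22e-05), and only 42.1% of its windows occur once. The protein-coding AT2G10950 (chr2:4314243-4317882), a BSD domain protein gene, had 42.1, 53.0 and 35.9 in prors1 (LUC), 29.3, 28.3 and 33.7 in rls6, and 16.7, 22.5 and 20.5 in Col-0 (LUC). It rose by 1.09 ± 0.21 in prors1 (LUC) (SE, adjusted p = 0.000679) and by 0.59 ± 0.21 in rls6 (adjusted p = 0.049), and the second call was lost under 14 of the 21 alternatives.

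Annotated class went with direction in rls6. Of the 881 pseudogenes inside the intervals and outside the insertion, 20 rose and 74 fell against Col-0 (LUC), with a median of -0.18. Of the 194 protein-coding loci 25 rose and 8 fell (median 0.02, which became -0.07 under upper-quartile and -0.11 under total-read scaling), and of the 51 lncRNAs 12 rose and 1 fell (median 0.11, which became -0.02 under total-read scaling). Over all tested loci, 12.7% rose and 4.95% fell in rls6 against Col-0 (LUC), and the protein-coding loci were close to these shares. In prors1 (LUC), 16 of the pseudogenes rose and 31 fell, 14 of the protein-coding loci rose and 14 fell, and 6 of the lncRNAs rose and 2 fell. Of all tested loci, 7.74% rose and 6.63% fell in prors1 (LUC) against Col-0 (LUC). Pseudogenes elsewhere in the nuclear genome, 1660 with enough reads, had 66 higher and 52 lower in rls6, with a median of -0.07. DESeq2 called 13 of the 881 pseudogenes higher and 25 lower in rls6, and 39 to 50 were lower when any one Col-0 (LUC) or rls6 library other than Col-0 (LUC) replicate 2 was left out. The falls of pseudogenes in prors1 (LUC) numbered 14 to 20 without Col-0 (LUC) replicate 1 or 3 or prors1 (LUC) replicate 2 or 3.

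Class and position overlapped. Pseudogenes made up 440 of the 518 loci within 1 Mb of a gap and 441 of the 668 beyond. Within 1 Mb, 6 of the pseudogenes rose and 51 fell in rls6 (median -0.22), and of the 78 other loci 4 rose and 9 fell (median -0.22). Beyond 1 Mb, 14 of the pseudogenes rose and 23 fell (median -0.14), and of the 227 other loci 36 rose and 5 fell (median 0.08). The 11 loci whose annotation names a transposon or retroelement had 1 higher and 0 lower in prors1 (LUC), and 2 higher and 0 lower in rls6, each against Col-0 (LUC).

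Locus length ran along with these groups. Among the 297 of the 1186 loci with the shortest exons, 101 to 937 bases, 39 rose and 11 fell in rls6 against Col-0 (LUC). Over all tested loci, 12.7% rose and 4.95% fell, shares near those of these short loci. Among the 297 with the longest, 3294 to 8949 bases, 3 rose and 41 fell, with a median of -0.17 beside -0.04 in the shortest. In prors1 (LUC) the shortest had 16 higher and 17 lower, and the longest 9 and 9. The falls among the longest in rls6 numbered 21 to 26 without any one Col-0 (LUC) or rls6 library other than Col-0 (LUC) replicate 2, and 16 with DESeq2. Across the 1186 loci, which share their libraries and are not independent, the log2 fold change in rls6 against Col-0 (LUC) had a Pearson r of 0.22 with distance from the gap and -0.19 with exon length, and that in prors1 (LUC) had an r of -0.02 with distance. Loci with at most 50% of windows found once had 5 of 330 higher and 20 lower in rls6, and those with over 90% had 37 of 389 higher and 32 lower. These groups were formed after the values were seen.

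Calls were also counted by the level in Col-0 (LUC), which enters both the bin and the fold change against Col-0 (LUC). Of the 96 loci with under 10 normalized reads in Col-0 (LUC), 5 rose and 1 fell in prors1 (LUC), and 8 rose and 0 fell in rls6. A locus in this lowest bin could enter the set only with a mutant library at the read threshold. The excess of rises there was thus in part fixed by the choice of loci. Of the 551 with 10 to 30 reads, 14 rose and 9 fell in prors1 (LUC), and 25 rose and 19 fell in rls6. Of the 452 with 30 to 100 reads, 27 rose and 28 fell in prors1 (LUC), and 30 rose and 40 fell in rls6. Of the 154 with 100 to 300 reads, 8 rose and 17 fell in prors1 (LUC), and 17 rose and 31 fell in rls6. Of the 27 with 300 reads or more, 0 rose and 3 fell in prors1 (LUC), and 2 rose and 4 fell in rls6.

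With bins by the Col-0 (LUC) level, falls in rls6 outnumbered rises in each bin from 30 reads upward. That level is also the base of the fold change, which favours falls in the higher bins. For all tested loci, the shares in rls6 against Col-0 (LUC) were 12.7% higher and 4.95% lower. On chromosome 4, 9 of the 86 loci with 100 to 300 reads rose and 24 fell in rls6, and on chromosome 2, 8 of 68 rose and 7 fell. When the same bin was formed by the mean over all 9 libraries, 26 of 149 loci with 100 to 300 reads rose and 24 fell in rls6, and in the bin of 30 to 100 reads 29 of 439 rose and 39 fell. In the same bin by Col-0 (LUC), the other nuclear loci had 82 of 523 higher and 44 lower in rls6.

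**Figure D3:**
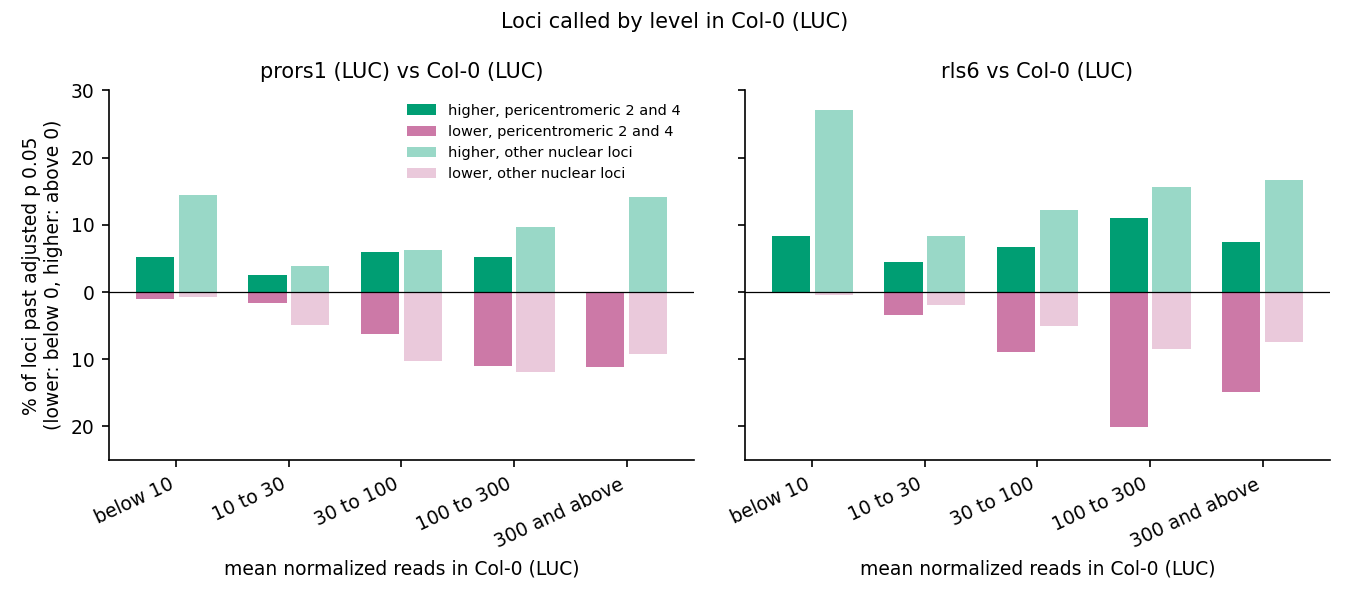
Share of loci called higher (above 0) and lower (below 0), in percent, by mean normalized reads in Col-0 (LUC), for prors1 (LUC) and rls6 against Col-0 (LUC), in the pericentromeric loci and the other nuclear loci. Among pericentromeric loci with 100 to 300 reads, 17 of 154 rose and 31 fell in rls6.

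Per kilobase of exon, the loci held a median of 19.0 normalized reads in Col-0 (LUC), against 23.6 in the other nuclear loci with enough reads. The median was 13.7 per kilobase within 1 Mb of a gap, 20.6 beyond it, 19.99 in the insertion and 78.7 in the loci on the arms. Inside the intervals, lncRNAs had a median of 44.2 and pseudogenes of 14.7 per kilobase. Among the loci with the most reads in Col-0 (LUC), AT2G06555 (chr2:2604148-2604927), a protein-coding locus of unknown function, held 1453, 1556 and 1551 normalized reads in prors1 (LUC), 1555, 1547 and 1521 in rls6, and 1519, 1566 and 1467 in Col-0 (LUC). The libraries of the 3 genotypes overlapped, and this was 1949 reads per kilobase in prors1 (LUC), 1976 in rls6 and 1945 in Col-0 (LUC). Its neighbour AT2G06550 (chr2:2602742-2603484), a pseudogene, had 427, 454 and 421 in prors1 (LUC), 429.7, 418 and 422 in rls6, and 519, 509 and 531 in Col-0 (LUC), and both mutants lay below all Col-0 (LUC) libraries.

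The fall of AT2G06550 was 0.29 ± 0.09 on the log2 scale in rls6 (SE, adjusted p = 0.0184) and 0.26 ± 0.09 in prors1 (LUC) (adjusted p = 0.0457), and the calls were lost under 5 and 13 of the 21 alternatives. On chromosome 4, none of the 4 loci with the most reads passed the test in either mutant against Col-0 (LUC). AT4G05526, a pseudogene, averaged 852 ± 14.5 normalized reads in prors1 (LUC), 884 ± 8.37 in rls6 and 963 ± 6.88 in Col-0 (LUC), with no overlap between mutants and Col-0 (LUC) but adjusted p of 0.175 and 0.357. AT4G03580, protein-coding and uncharacterized, averaged 916 ± 50.3 in prors1 (LUC), 1049 ± 32.1 in rls6 and 928 ± 52.3 in Col-0 (LUC) (adjusted p = 0.932 and 0.189). AT4G04570, a cysteine-rich receptor-like kinase gene, averaged 812 ± 60.8 in prors1 (LUC), 796 ± 54.1 in rls6 and 782 ± 35.01 in Col-0 (LUC) (SD, n = 3 each, adjusted p = 0.783 and 0.909). AT4G03920, a pseudogene, averaged 749.8 ± 23.1 in prors1 (LUC), 685 ± 27.2 in rls6 and 717 ± 61.8 in Col-0 (LUC) (adjusted p = 0.704 and 0.721). AT2G06420, whose annotation names an En/Spm-like transposon protein, averaged 585 ± 7.15 in prors1 (LUC), 515 ± 9.46 in rls6 and 605 ± 41.9 in Col-0 (LUC), with adjusted p of 0.805 and 0.0739.

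The largest rises inside the intervals were in rls6, at loci over 1 Mb from the gap. AT2G05925 (chr2:5661128-5661510), an lncRNA locus whose first bases are shown above, had 40.0, 48.2 and 41.0 normalized reads in prors1 (LUC), 246, 231 and 221 in rls6, and 31.8, 37.0 and 35.9 in Col-0 (LUC). Every rls6 library was far above the others, at 6.68 times the Col-0 (LUC) mean, and the log2 fold change was 2.71 ± 0.14 (SE, adjusted p = 8.71e-13). Against prors1 (LUC) it was 2.41 ± 0.14 (adjusted p = 9.31e-12), and prors1 (LUC) against Col-0 (LUC) did not pass (adjusted p = 0.171). AT4G08545 (chr4:5436600-5439167), annotated as an LRR receptor-like protein gene, had 226, 231 and 191 in prors1 (LUC), 923, 891 and 819 in rls6, and 159.7, 157 and 159 in Col-0 (LUC). The 3 genotypes did not overlap, and it rose by 2.46 ± 0.10 in rls6 (SE, adjusted p = 1.37e-14) and by 0.44 ± 0.10 in prors1 (LUC) (adjusted p = 0.00333), the second call being lost under total-read scaling and without the variance trend.

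AT2G04765 (chr2:1483839-1484090), an lncRNA locus, rose in both mutants. It had 109, 127 and 94.4 normalized reads in prors1 (LUC), 279, 256 and 243 in rls6, and 58.5, 54.6 and 42.02 in Col-0 (LUC). The genotypes did not overlap, and against Col-0 (LUC) the log2 fold change was 1.08 ± 0.14 in prors1 (LUC) (SE, adjusted p = 5.22e-06) and 2.31 ± 0.14 in rls6 (adjusted p = 1.25e-11). Between the mutants it was 1.23 ± 0.14 higher in rls6 (SE, adjusted p = 3.97e-07). AT4G03824, a pseudogene, also rose in both, averaging 30.6 ± 3.02 in prors1 (LUC), 30.2 ± 4.11 in rls6 and 11.3 ± 2.24 in Col-0 (LUC) (adjusted p = 0.000166 and 0.000107). AT2G06225, an lncRNA locus with 17.2 ± 4.47 in prors1 (LUC), 39.5 ± 9.64 in rls6 and 8.73 ± 0.79 in Col-0 (LUC), rose by 2.03 ± 0.26 in rls6 (adjusted p = 2.88e-06). AT2G04622, a short protein-coding locus of unknown function, averaged 13.4 ± 3.54 in prors1 (LUC), 45.2 ± 9.56 in rls6 and 14.8 ± 3.07 in Col-0 (LUC) (SD, n = 3 each), and its rls6 libraries lay above all others (adjusted p = 7.8e-05 against Col-0 (LUC)).

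In prors1 (LUC) the loci named for their rise were mostly pseudogenes or uncharacterized. The pseudogene AT2G13090 (chr2:5386717-5389422) had 143, 179 and 145 normalized reads in prors1 (LUC), 63.2, 67.9 and 45.6 in rls6, and 76.1, 82.7 and 67.6 in Col-0 (LUC). Its prors1 (LUC) libraries lay above all others, with a log2 fold change of 1.03 ± 0.15 against Col-0 (LUC) (SE, adjusted p = 3.4e-05), and it fell by 1.40 ± 0.15 in rls6 against prors1 (LUC) (adjusted p = 2.35e-07). AT4G09455, a pseudogene with only 6.64% of windows found once, averaged 33.7 ± 1.93 in prors1 (LUC), 13.3 ± 2.32 in rls6 and 18.2 ± 1.39 in Col-0 (LUC), and AT4G09850, an uncharacterized protein-coding locus, averaged 70.9 ± 6.09 in prors1 (LUC), 35.04 ± 2.88 in rls6 and 44.4 ± 6.27 in Col-0 (LUC). In both, all prors1 (LUC) libraries lay above the rest (adjusted p = 0.0141 and 0.00627 against Col-0 (LUC)), and the call of AT4G09455 was lost under 5 of 21 alternatives, among them leaving out replicate 2 of prors1 (LUC) or replicate 1 of Col-0 (LUC), DESeq2 and total-read scaling. That of AT4G09850 was lost when every locus with 1 read was tested. The lncRNA locus AT4G05075 averaged 28.5 ± 8.31 in prors1 (LUC), 19.6 ± 2.14 in rls6 and 13.3 ± 3.92 in Col-0 (LUC), and its rise in prors1 (LUC) (adjusted p = 0.0119) was lost without Col-0 (LUC) replicate 1 and without prors1 (LUC) replicate 2 or 3.

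Among the loci of chromosome 4 named for a fall in prors1 (LUC), 2 lie inside the intervals, and both overlap other genes. AT4G04760 (chr4:2424030-2427769), a major facilitator superfamily gene of the class of membrane transporters, had 5.26, 10.6 and 5.13 normalized reads in prors1 (LUC), 25.7, 19.8 and 31.7 in rls6, and 47.7, 33.7 and 33.8 in Col-0 (LUC). All prors1 (LUC) libraries lay below the rest, and it fell by 2.35 ± 0.28 on the log2 scale (SE, adjusted p = 2.22e-06). It overlaps AT4G04770, which averaged 0.321 reads in prors1 (LUC), 0.305 in rls6 and 0.279 in Col-0 (LUC). AT4G04221, an lncRNA locus overlapping the protein-coding AT4G04220, averaged 10.6 ± 4.51 in prors1 (LUC), 28.2 ± 9.84 in rls6 and 36.3 ± 5.79 in Col-0 (LUC), and fell by 1.76 ± 0.29 in prors1 (LUC) (SE, adjusted p = 0.000165), beside 5.66, 8.07 and 7.99 reads at its partner in prors1 (LUC), rls6 and Col-0 (LUC).

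On chromosome 2, the loci inside the intervals named for a fall in either mutant against Col-0 (LUC) included 3 pseudogenes. AT2G14605 averaged 26.0 ± 1.72 normalized reads in prors1 (LUC), 47.1 ± 5.76 in rls6 and 51.6 ± 7.57 in Col-0 (LUC), and fell by 0.95 ± 0.18 in prors1 (LUC) (SE, adjusted p = 0.000516). AT2G06060 averaged 17.7 ± 5.64 in prors1 (LUC), 21.7 ± 7.04 in rls6 and 33.1 ± 7.79 in Col-0 (LUC) (adjusted p = 0.0312 in prors1 (LUC)), and AT2G06285 averaged 35.1 ± 12.9 in prors1 (LUC), 30.8 ± 5.24 in rls6 and 54.9 ± 1.70 in Col-0 (LUC) (adjusted p = 0.0416 in prors1 (LUC) and 0.0125 in rls6). The prors1 (LUC) call of AT2G06060 was lost without Col-0 (LUC) replicate 3, prors1 (LUC) replicate 1 or 3 or the variance trend, and with DESeq2. That of AT2G06285 was lost under 10 of 21 alternatives, among them without each Col-0 (LUC) replicate and without prors1 (LUC) replicate 2, and its rls6 call was lost without rls6 replicate 1 or the variance trend.

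**Figure D4:**
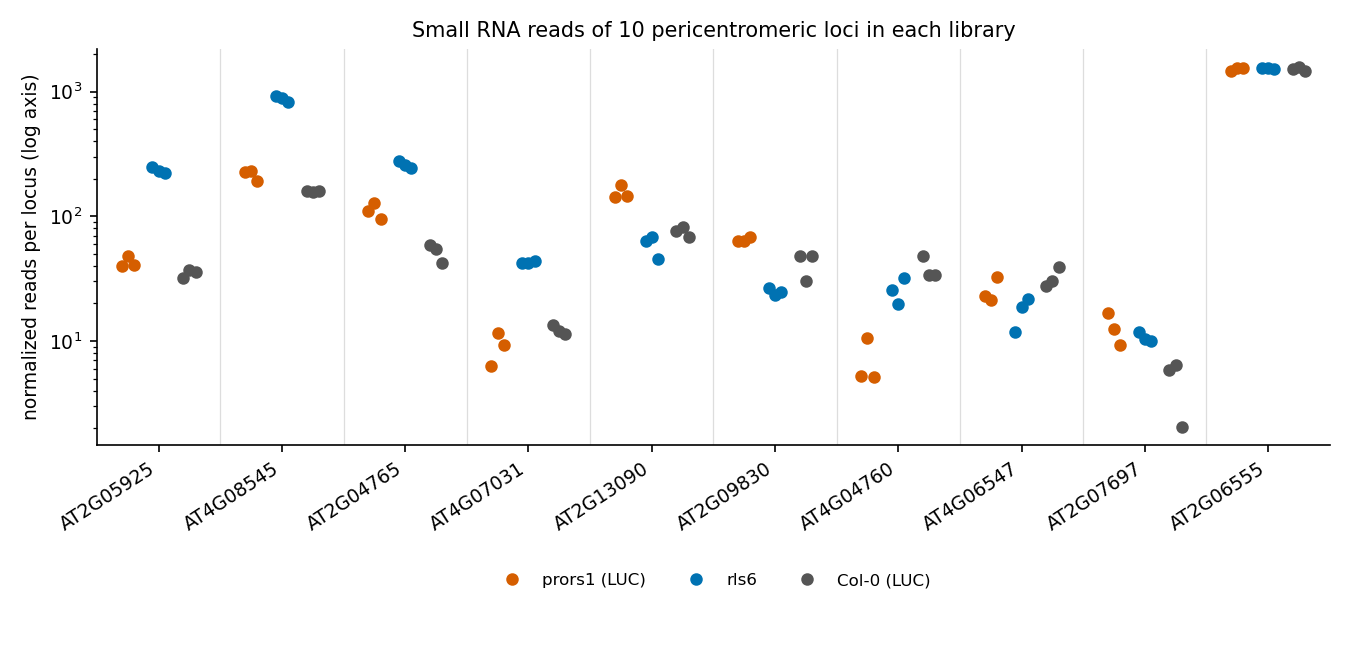
Normalized reads (log axis) of 10 loci described in the text, with 1 point for each library of prors1 (LUC), rls6 and Col-0 (LUC). AT2G05925 and AT4G08545 stand out in rls6, AT2G13090 in prors1 (LUC), and AT2G09830 is highest in prors1 (LUC) and lowest in rls6.

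A set of 3 pseudogenes and a locus below the threshold were named whatever their values. AT4G08680 (chr4:5542431-5544862) had 22.1, 33.7 and 31.8 normalized reads in prors1 (LUC), 50.4, 31.1 and 42.6 in rls6, and 36.8, 21.7 and 24.6 in Col-0 (LUC). AT2G12210 (chr2:4902163-4908827) had 58.9, 53.0 and 57.4 in prors1 (LUC), 47.6, 42.4 and 40.6 in rls6, and 46.0, 53.0 and 43.0 in Col-0 (LUC). AT4G03650 (chr4:1619563-1624141), whose first bases are shown above, had 187, 191 and 208 in prors1 (LUC), 169, 180.0 and 203 in rls6, and 214, 159.9 and 218 in Col-0 (LUC). In all 3 the libraries of each mutant overlapped those of Col-0 (LUC), and no adjusted p was under 0.101. At most 24.2% of their windows occur once in the genome. AT2G04770 stayed below the threshold, with a third-highest library value of 3.16.

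The remaining loci taken by the rule for large changes were lower in rls6 or in both mutants. AT4G07666, an uncharacterized protein-coding locus 0.50 Mb from the gap of chromosome 4, averaged 20.05 ± 4.90 normalized reads in prors1 (LUC), 15.6 ± 3.20 in rls6 and 30.9 ± 4.58 in Col-0 (LUC) (adjusted p = 0.00842 in rls6, lost without rls6 replicate 1). The non-coding RNA locus AT2G06002 averaged 24.4 ± 3.61 in prors1 (LUC), 17.7 ± 3.47 in rls6 and 30.7 ± 3.77 in Col-0 (LUC) (adjusted p = 0.0188 in rls6, lost with DESeq2, without Col-0 (LUC) replicate 1 or 3 or rls6 replicate 2, and when every locus with 1 read was tested). AT2G09840, annotated as a nucleic acid and zinc ion binding protein gene and lying 0.0967 Mb from the gap of chromosome 2, averaged 14.3 ± 3.98 in rls6, against 27.8 ± 4.37 in prors1 (LUC), with 20.2 ± 4.48 in Col-0 (LUC), and fell by 0.93 ± 0.26 in rls6 against prors1 (LUC) (SE, adjusted p = 0.0138). The pseudogene AT4G06714, 0.0384 Mb from the gap of chromosome 4, averaged 14.6 ± 5.31 in rls6, against 29.0 ± 1.16 in prors1 (LUC), with 25.7 ± 9.91 in Col-0 (LUC), and fell by 1.01 ± 0.29 in rls6 against prors1 (LUC) (SE, adjusted p = 0.0172). The first of these 2 calls was lost without prors1 (LUC) replicate 1 or rls6 replicate 1 or 2, and the second without rls6 replicate 2 or the variance trend, and both were lost with DESeq2. On the arm of chromosome 4, the lncRNA AT4G06695, which overlaps the protein-coding AT4G17390 and a small nucleolar RNA, averaged 78.5 ± 17.4 in prors1 (LUC), 67.6 ± 19.2 in rls6 and 149.9 ± 50.0 in Col-0 (LUC) (SD, n = 3 each, adjusted p = 0.007 and 0.000558), the call in prors1 (LUC) being lost without Col-0 (LUC) replicate 3 or the variance trend and with DESeq2.

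In the mitochondrial insertion, rises outnumbered falls in prors1 (LUC). Against Col-0 (LUC), 9 of its 35 loci rose and 0 fell in this mutant, the median log2 fold change was 0.55, and 29 of 35 lay above 0. In rls6 against Col-0 (LUC), 2 rose and 0 fell (median 0.06, which became -0.03 under upper-quartile and -0.06 under total-read scaling), and in rls6 against prors1 (LUC), 0 rose and 5 fell (median -0.45), with 2 lower with DESeq2 or without prors1 (LUC) replicate 1 or 2 and 3 without rls6 replicate 1. Among all tested loci, 7.74% rose and 6.63% fell in prors1 (LUC) and 12.7% and 4.95% in rls6, each against Col-0 (LUC). In rls6 against prors1 (LUC), 11.7% of all tested loci rose and 5.16% fell. The summed normalized reads of the 35 loci were 1780, 1665 and 1418 in prors1 (LUC), 1197, 1272 and 1244 in rls6, and 1062, 1276 and 1108 in Col-0 (LUC). All prors1 (LUC) libraries lay above the rest, at 1.41 times the Col-0 (LUC) mean. As a share of all reads in a library, prors1 (LUC) and Col-0 (LUC) overlapped. Replicate 3 of prors1 (LUC) was at 0.221% and replicate 2 of Col-0 (LUC) at 0.226%. The number higher in prors1 (LUC) was 16 without Col-0 (LUC) replicate 2, 6 without Col-0 (LUC) replicate 1 and 6 without prors1 (LUC) replicate 1 or 2, and DESeq2 called 5.

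Reads of this insertion cannot be told apart from those of the mitochondrial genome itself, since at most 5.83% of the windows of any of the 35 loci occur once. The 34 loci encoded by the mitochondrion that had enough reads showed a median of 0.41 in prors1 (LUC) and -0.03 in rls6 against Col-0 (LUC), and -0.42 in rls6 against prors1 (LUC). The part of those transcripts in the 35 loci was not tested. The examples given here were chosen after their values were seen. AT2G07749 (chr2:3247003-3249357), annotated as an RNA-dependent RNA polymerase of mitovirus type, had 351, 329.6 and 237 normalized reads in prors1 (LUC), 219, 237 and 205 in rls6, and 193, 196 and 191 in Col-0 (LUC). It rose by 0.64 ± 0.12 in prors1 (LUC) (SE, adjusted p = 0.00071), and its prors1 (LUC) and Col-0 (LUC) libraries did not overlap. AT2G07698, which encodes an ATP synthase F1 alpha subunit, averaged 62.7 ± 7.26 in prors1 (LUC), 38.4 ± 12.6 in rls6 and 34.8 ± 6.09 in Col-0 (LUC) (adjusted p = 0.0078 in prors1 (LUC), lost without the variance trend).

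AT2G07695, a cytochrome c oxidase subunit II-like gene of the respiratory chain, averaged 113 ± 15.4 normalized reads in prors1 (LUC), 80.6 ± 19.0 in rls6 and 72.2 ± 17.9 in Col-0 (LUC) (SD, n = 3 each, adjusted p = 0.0129 in prors1 (LUC)), and its call did not hold when Col-0 (LUC) replicate 1 or 3 or prors1 (LUC) replicate 2 was left out, without the variance trend or under total-read scaling. The pseudogene AT2G07697 rose most by fold in prors1 (LUC), at 12.9 ± 3.81 in prors1 (LUC), 10.7 ± 1.05 in rls6 and 4.78 ± 2.38 in Col-0 (LUC) (log2 fold change 1.33 ± 0.38, adjusted p = 0.0204 in prors1 (LUC)), on few reads, and its rise no longer passed after dropping prors1 (LUC) replicate 1 or 2 or Col-0 (LUC) replicate 3, and with DESeq2. AT2G07683, a pseudogene overlapping 2 tRNA loci, rose in both mutants, averaging 107 ± 9.23 in prors1 (LUC), 115 ± 14.7 in rls6 and 72.7 ± 14.9 in Col-0 (LUC) (adjusted p = 0.0106 and 0.00193). Its call in prors1 (LUC) was lost without Col-0 (LUC) replicate 1 or the variance trend, with DESeq2 and under total-read scaling. AT2G07685, also a pseudogene, averaged 123 ± 22.3 in prors1 (LUC), 106 ± 8.36 in rls6 and 106 ± 23.7 in Col-0 (LUC), with overlapping libraries (adjusted p = 0.39 and 0.955).

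The 59 loci on the chromosome arms were short, with a median exon length of 386 bases, and 29 of them overlapped another gene, 25 on the opposite strand. In rls6 against Col-0 (LUC), 20 rose and 6 fell (median 0.43), against prors1 (LUC) 24 rose and 2 fell (median 0.32), and in prors1 (LUC) against Col-0 (LUC) 6 rose and 7 fell (median -0.09), with 3 higher after dropping replicate 3 of prors1 (LUC) or of Col-0 (LUC). Rises also outnumbered falls among all tested loci, at 12.7% and 4.95% in rls6 against Col-0 (LUC) and 11.7% and 5.16% against prors1 (LUC). In prors1 (LUC) against Col-0 (LUC), 7.74% of all tested loci rose and 6.63% fell. The sum of the 59 loci was 4837, 4797 and 4792 normalized reads in prors1 (LUC), 7215, 6668 and 6749 in rls6, and 6820, 5951 and 6567 in Col-0 (LUC). The prors1 (LUC) libraries lay below all others, at 0.746 times the Col-0 (LUC) mean, and the mean of 1 locus alone fell by 1607 reads.

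That locus was AT2G09250 (chr2:17224503-17224801), an lncRNA that overlaps the protein-coding AT2G41310. It had 1459.5, 1322 and 1376 normalized reads in prors1 (LUC), 1861, 1620.1 and 1714 in rls6, and 3120.0, 2635 and 3225 in Col-0 (LUC), and no groups overlapped. It fell by 1.11 ± 0.10 on the log2 scale in prors1 (LUC) (SE, adjusted p = 2e-08) and by 0.79 ± 0.10 in rls6 (adjusted p = 1.5e-06), and AT2G41310 itself averaged 47.7 reads in prors1 (LUC), 67.1 in rls6 and 63.4 in Col-0 (LUC). The lncRNA locus AT4G05995 (chr4:7592500-7592885), whose first bases are shown above, had 174, 129 and 118 in prors1 (LUC), 564, 595 and 562 in rls6, and 89.5, 87.6 and 105 in Col-0 (LUC). All rls6 libraries lay above the others, at 6.11 times the Col-0 (LUC) mean (log2 fold change 2.60 ± 0.12, SE, adjusted p = 3.77e-13), and it rose by 0.56 ± 0.12 in prors1 (LUC) (adjusted p = 0.00329), a call lost without the variance trend.

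Other lncRNA loci on the arms were called in rls6, in prors1 (LUC) or in both. AT2G06505 averaged 27.7 ± 5.03 normalized reads in prors1 (LUC), 117 ± 11.7 in rls6 and 29.5 ± 2.69 in Col-0 (LUC), and AT4G07295 averaged 20.3 ± 5.53 in prors1 (LUC), 113 ± 2.49 in rls6 and 28.7 ± 3.03 in Col-0 (LUC) (SD, n = 3 each, adjusted p = 5.71e-09 and 2.46e-08 in rls6). AT4G07765 averaged 51.0 ± 3.77 in prors1 (LUC), 162 ± 10.8 in rls6 and 40.5 ± 13.99 in Col-0 (LUC), and the lncRNA locus it overlaps, AT4G07775, averaged 105 in prors1 (LUC), 269 in rls6 and 74.4 in Col-0 (LUC). AT4G07395, which overlaps the non-coding RNA locus AT4G03125, averaged 15.2 ± 2.02 in prors1 (LUC), 75.9 ± 23.5 in rls6 and 53.4 ± 21.3 in Col-0 (LUC), and fell by 1.66 ± 0.26 in prors1 (LUC) (SE, adjusted p = 6.67e-05), with overlap between the libraries of rls6 and Col-0 (LUC). AT4G03585, which overlaps the protein-coding AT4G00360, averaged 8.44 ± 1.16 in prors1 (LUC), 13.3 ± 2.16 in rls6 and 39.8 ± 5.90 in Col-0 (LUC), and fell by 2.11 ± 0.26 in prors1 (LUC) (SE, adjusted p = 2.57e-06) and by 1.52 ± 0.26 in rls6 (adjusted p = 9.87e-05).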

How the data were processed

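Small RNA of 17 to 30 nt was measured in 9 libraries, 3 per genotype, grouped by title and genotype label. The TAIR10 build, featureCounts, Bowtie2, FastQC and Trimmomatic are named, per the submitters' processing notes; not given in the sources used here are their roles and versions, the strand setting and the treatment of reads with several places. Columns of the libraries are signal values, read counts per locus divided by a size factor per library as deposited by the authors (0.950 to 1.24). Every value was a whole multiple of its column's step within 0.0001, so whole reads were recovered for 100% of values and given to the count tools. The deposited table also holds a comparison of the authors in log2 fold changes, standard errors, a Wald score and p-values, per the file headers, with no groups named; these were not used.

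Values of log2(normalized reads + 1) were tested in R 4.3.3 by limma 3.58.1, its variance following a trend over mean level, with all 9 libraries, genotype as the only term and 4766 loci, adjusted by the method of Benjamini and Hochberg over all of them. On this scale fold changes of loci with few reads are understated. In data simulated for prors1 (LUC) against Col-0 (LUC) with 4766 loci, it found 84.0% of loci raised 2-fold, 66.0% of loci lowered 2-fold and 100% of loci changed 4-fold, with 10 false calls. The changed loci were drawn only from those with a mean of at least 20 normalized reads. The same spread was set for every locus rather than taken from the libraries. The lower quartile of the 9-library mean was 15.4 in the 1280 loci, so these shares do not cover many of them. Other tools were edgeR 4.0.16, DESeq2 1.42.0, Python 3.11.15, numpy 2.4.6, pandas 2.3.3 and scipy 1.17.1. Positions, classes and sequences came from the TAIR10.1 annotation and assembly (RefSeq), and windows of 21 bases were counted on both strands. No p was computed for sums, medians or lists.

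Named loci were, per chromosome, the 4 with the most reads in Col-0 (LUC), up to 3 in each direction and comparison with the largest change among those called with a mean of at least 20 normalized reads and no overlap of libraries, the loci beside the threshold, and 4 fixed pseudogenes. Examples near the gap and in the insertion, and the groups by distance, length and uniqueness, were chosen after the values were seen. The loci and lists as a whole were chosen with earlier results of these data known. A grouping by transposon superfamily was planned and could not be made from the annotation text. Alternatives covered the tool, trend, pseudocount, filter, scaling, replicate block and each library left out.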

Additional observations from a re-analysis of the deposited data

How the results depend on the processing

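Counts of changed loci depended on the tool and the scaling, and medians on the scaling. Without the variance trend, 35 loci rose and 35 fell in prors1 (LUC), and 55 fell in rls6 against prors1 (LUC). DESeq2 called 23 higher and 20 lower in prors1 (LUC) (median -0.015), 54 and 36 in rls6 against Col-0 (LUC) (median -0.14), and 63 and 20 in rls6 against prors1 (LUC) (median -0.14, as with edgeR). A pseudocount of 5 gave medians of -0.11 and -0.11 in rls6. Testing every locus with 1 read in any library left 27, 47 and 32 lower in prors1 (LUC), rls6 against Col-0 (LUC) and rls6 against prors1 (LUC), and a filter on a mean of 10 reads gave a median of -0.12 in rls6.

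Upper-quartile scaling moved the median of all tested loci from -0.02 to -0.11 in rls6 against Col-0 (LUC), and total-read scaling moved it to -0.12 in prors1 (LUC) and -0.15 in rls6. Under upper-quartile scaling 66 loci rose and 162 fell in rls6 (median -0.22), beside 82 and 94 as reported, 79 rose and 146 fell in rls6 against prors1 (LUC) (median -0.20), and the prors1 (LUC) median was -0.017. Under total-read scaling 23 rose and 89 fell in prors1 (LUC) (median -0.13), beside 54 and 58 as reported, 55 rose and 156 fell in rls6 (median -0.26), and 82 rose and 50 fell in rls6 against prors1 (LUC) (median -0.13). The cause was not tested. Relative to the median of all tested loci, the rls6 median against Col-0 (LUC) was -0.107 as reported and -0.108 under each of these scalings. Beyond 1 Mb this difference was -0.058 as reported and -0.060 under each. In the mitochondrial insertion it was 0.086 under all of these settings. The sums were 75959, 72678 and 78402 normalized reads in prors1 (LUC), rls6 and Col-0 (LUC) under the first scaling and 72617, 73425 and 81550 under the second, 73390, 74254 and 75280 without the mitochondrial insertion, and 70203, 68615 and 69983 with loci inside the intervals alone. The rls6 medians were then -0.12 against prors1 (LUC) without the insertion, and -0.14 against each of the others inside the intervals.

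Leaving out each library in turn gave 35 to 70 higher and 32 to 55 lower in prors1 (LUC) (median -0.0066 to 0.0078), 63 to 90 and 56 to 101 in rls6 (-0.13 to -0.11), and 68 to 95 and 49 to 100 in rls6 against prors1 (LUC) (-0.14 to -0.12), with sums of 74861 to 75154 in prors1 (LUC), 75223 to 75772 in rls6 and 76073 to 76859 in Col-0 (LUC). The lowest counts were 35 higher in prors1 (LUC) without prors1 (LUC) replicate 2, 32 and 36 lower in prors1 (LUC) without Col-0 (LUC) replicate 3 and prors1 (LUC) replicate 3, 57, 56 and 57 lower in rls6 after dropping Col-0 (LUC) replicate 1, replicate 3 of that genotype and rls6 replicate 2, and 49 to 58 lower in rls6 against prors1 (LUC) without any one library of these genotypes.

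With the replicate block, 73 rose and 68 fell in prors1 (LUC), 89 and 116 in rls6, and 97 and 109 in rls6 against prors1 (LUC). Each of these counts was above the one reported. Whether the numbers pair the samples was not settled by the correlations between libraries. Libraries of the same number correlated at -0.018 to 0.153, over 0.1 in 2 of 9 pairs. Libraries of different numbers correlated at -0.124 to 0.032. In both other genotypes, 5 of 9 libraries correlated best with their own number. Of 81 calls at named loci, 46 held under all 21 alternatives, 35 were lost under some and 0 reversed, and 11 results that had not passed did so under some. At 611238 to 702303 reads a library, changes under 2-fold at loci near 10 reads are poorly resolved.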
